A study of Mus musculus with 2 samples.

Results

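Two-cell-like cells are a rare, transient kind of cell in mouse embryonic stem (ES) cell cultures, and they were examined here in pooled C3H/HeSn-Paf/J lines. A barcode was counted as two-cell-like if it had at least 18000 UMIs (unique molecular identifiers, each standing for 1 captured transcript), at least 1000 genes, at most 10% mitochondrial UMIs, and 5 or more summed UMIs of Zscan4c, Zscan4d, Zscan4f, Zfp352 and B020031M17Rik. This gave 216 two-cell-like cells among 54279 cells passing the filters. The early library (time 1) held 151 of 25962 cells, and the later library (time 2) held 65 of 28317. The cells were thus chosen by their own UMIs of these 5 genes. For this reason their levels and all gene ratios between the chosen and the other cells are given as descriptions without a test.

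The series used ES lines of strain C3H/HeSn-Paf/J from XX, XO and XY embryos, with 3 lines derived independently for each sex chromosome type. All 9 lines were grown on gelatin and irradiated embryonic fibroblast feeders in medium with serum and LIF, pooled, and sequenced on the 10x Genomics platform with 3' chemistry version 3.1, once at an early passage and once after 10 further passages. Each time point has 1 library, the lipid tags meant to mark the lines were not used, and no cell is assigned to a line or culture. A difference between time points is therefore a difference between 2 libraries, with no replicate behind it. The intervals below are 95% intervals and cover counting error only; they are exact (Clopper-Pearson for shares, Poisson for counts), except Newcombe intervals for differences between shares. The libraries held 1735810403 UMIs over 145288 barcodes at time 1 and 1843588321 UMIs over 52242 barcodes at time 2, of which 12072148 and 4434828 UMIs were in two-cell-like cells. Among cells passing the filters, 194 barcode sequences occurred in both libraries; none was two-cell-like in both, and 2 were two-cell-like in 1 library and not in the other.

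The mouse embryo switches on its own genome mainly at the two-cell stage, when a burst of genes rarely used later is transcribed, many of them in recent multigene families. Cultured ES cells pass through a similar state now and then and return from it. The transcription factor Dux, acting downstream of Dppa2 and Dppa4, is known to start this programme, and the SCAN-domain zinc finger proteins of the Zscan4 family, which take part in telomere maintenance, are its classical markers.

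The sequences just upstream of 5 of the genes are shown because they include 3 of the 15 genes with the highest ratios and all 3 Zscan4 genes of the selection rule, whose windows are near copies of one another. Each is the 250 bases before the annotated start in the RefSeq table of GRCm38.p6, written 5′ to 3′ on the strand of the gene. The RefSeq and GENCODE starts were the same for Zscan4c, Zscan4f and Zfp352 and 11 bases apart for Zscan4d. For Gm21761 the RefSeq start lies 15804 bases downstream of the GENCODE start used for its coordinates elsewhere here, so its window is inside the gene as GENCODE places it. Capitals mark the letters TGATTCAA and TATAAA in the first 4 sequences and the unit GACAACACAC in Zfp352.
Zscan4c (chr7:11005495-11005744, plus strand): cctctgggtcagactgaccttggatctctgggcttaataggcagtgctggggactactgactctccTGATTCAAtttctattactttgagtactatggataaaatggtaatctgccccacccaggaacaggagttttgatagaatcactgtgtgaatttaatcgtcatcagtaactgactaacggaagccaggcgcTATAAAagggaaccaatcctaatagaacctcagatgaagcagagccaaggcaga
Zscan4d (chr7:11166149-11166398, minus strand): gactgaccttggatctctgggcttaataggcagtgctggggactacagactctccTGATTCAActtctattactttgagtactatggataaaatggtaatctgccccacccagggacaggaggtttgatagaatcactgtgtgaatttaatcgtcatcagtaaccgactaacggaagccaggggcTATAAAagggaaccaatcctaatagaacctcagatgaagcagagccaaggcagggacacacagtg
Zscan4f (chr7:11397665-11397914, plus strand): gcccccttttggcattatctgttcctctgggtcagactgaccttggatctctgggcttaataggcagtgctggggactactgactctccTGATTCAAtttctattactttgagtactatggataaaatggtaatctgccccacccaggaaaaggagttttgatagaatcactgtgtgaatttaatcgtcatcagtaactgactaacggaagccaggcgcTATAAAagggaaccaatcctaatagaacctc
Gm21761 (chr13:119913469-119913718, minus strand): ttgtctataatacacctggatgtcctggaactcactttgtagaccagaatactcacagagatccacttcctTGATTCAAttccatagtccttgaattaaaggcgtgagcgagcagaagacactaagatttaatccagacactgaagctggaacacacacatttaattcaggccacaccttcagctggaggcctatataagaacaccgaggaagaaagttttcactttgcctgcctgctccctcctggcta
Zfp352 (chr4:90218570-90218819, plus strand): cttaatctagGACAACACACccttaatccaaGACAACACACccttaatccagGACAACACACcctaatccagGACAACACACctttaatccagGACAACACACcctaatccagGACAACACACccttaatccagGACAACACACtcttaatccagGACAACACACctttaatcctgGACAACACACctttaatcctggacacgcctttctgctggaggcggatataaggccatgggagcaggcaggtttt

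The Zscan4c and Zscan4f windows were identical at 226 of 227 aligned positions (99.6%), Zscan4c and Zscan4d at 232 of 239 (97.1%), and Zscan4d and Zscan4f at 209 of 216 (96.8%). TGATTCAA lay on the coding strand of Zscan4c, Zscan4d and Zscan4f, starting 184, 195 and 161 bases before the start, and of Gm21761, starting 179 bases before it. On either strand these letters occurred in 0.539% of the 32851 windows of this length in the table. Among the 105 genes at least 2-fold higher in two-cell-like cells of both libraries (described below), 60 had an entry, and 4 of the 60 held TGATTCAA (AF067061, Gm21761, Zscan4c and Zscan4d). Zscan4c and Zscan4d are selecting genes, and AF067061 and Gm21761 lie in the same stretch of chromosome 13 as the selecting gene B020031M17Rik. All 4 were under 1 CPM in other cells and could be compared only through the two-cell-like cells. The count is therefore no independent reading to set against the share of all windows. TATAAA was present in all 3 Zscan4 windows, starting 54, 65 and 31 bases before the start. It was in 8 of the 60 genes (13.3%), close to the 12.4% of all windows. The longer palindrome TGATTNAATCA was in 0.0304% of all windows and in none of the 60 genes. The Zfp352 window was largely a tandem repeat holding 9 copies of GACAACACAC, and it was the only 1 of the 32851 windows with 3 or more copies on the coding strand. The repeat unit was chosen as the most frequent stretch of its length in the Zfp352 window itself, so its rarity elsewhere is no independent reading. No window is shown for B020031M17Rik, Tcstv1, Gm8300 and Gm5662.

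Two-cell-like cells made up 0.582% of cells at time 1 (95% interval 0.493 to 0.682%) and 0.23% at time 2 (0.177 to 0.292%). With every cell thinned to 18000 UMIs, the shares were 0.366% (0.296 to 0.447%) and 0.134% (0.095 to 0.184%), so the order of the libraries was the same at equal depth. The summed UMIs of the 5 selecting genes ran from 5 to 747 per two-cell-like cell at time 1 (median 21) and from 5 to 373 at time 2 (median 22). A sum of 50 or more was reached by 48 and 17 cells, and a sum of 200 or more by 13 and 3 cells. Just inside the threshold were 17 and 4 cells with 5 UMIs, and just outside it 28 and 7 cells with 4 UMIs. A single UMI was found in 950 and 456 cells.

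Free RNA can put single UMIs into cells that do not use a gene, so the same sum was read in cells carrying 30 or more UMIs of 6 fibroblast markers, which should lack it. At least 1 UMI of the 5 genes was present in 23 of 295 such cells (7.8%, 5.01 to 11.5%) at time 1 and in 5 of 531 (0.942%, 0.306 to 2.18%) at time 2. Among all other cells below the threshold the shares were 4.28% and 1.78%. Median depths were 65969 and 75968 UMIs in the fibroblast-marker cells and 44894 and 52327 UMIs in the others. A sum of 5 or more was seen in 1 of the 295 cells and in 0 of the 531, the latter allowing a share of up to 0.565% (3 counts in 531 cells). At time 1, a UMI of the selecting genes was thus no rarer in fibroblast-marker cells than in the others.

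B020031M17Rik, a gene of the chromosome 13 two-cell cluster, carried most of the signal: it gave 64.2% of the UMIs of the 5 genes in two-cell-like cells at time 1 and 71.9% at time 2. Its level was 485 CPM (UMIs of the gene per 1000000 UMIs summed over the cells of a class) in two-cell-like cells against 0.661 CPM in other cells at time 1, and 514 against 0.212 CPM at time 2. Zscan4d followed with 145 against 0.168 CPM at time 1 and 107 against 0.0554 CPM at time 2. Zscan4c was at 95.5 against 0.12 CPM and at 73.3 against 0.0294 CPM. Zfp352, which encodes a zinc finger protein, was lower in level, at 22.3 against 0.0458 CPM and 14.7 against 0.013 CPM. Zscan4f was the lowest of the 5, at 7.46 against 0.0177 CPM and 5.64 against 0.00678 CPM. All 5 were far above the other cells in both libraries, as selecting on their sum favours. Not every two-cell-like cell had each gene: Zscan4f had a UMI in 29.8% and 21.5% of them, and Zfp352 in 35.1% and 29.2%. The Zscan4 genes are known as close copies of one another, so the split of UMIs among them is uncertain; their transcribed 3' ends were not compared here.

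Most two-cell-like cells carried both kinds of marker. UMIs of a selecting Zscan4 gene together with Zfp352 or B020031M17Rik were found in 98 of 151 cells (64.9%, 56.7 to 72.5%) at time 1 and in 41 of 65 (63.1%, 50.2 to 74.7%) at time 2. Zscan4 genes alone were found in 23 and 20 cells, and Zfp352 or B020031M17Rik alone in 30 and 4 cells. Cells with both kinds had a median of 30.5 and 32 UMIs of the selecting genes. Those with Zscan4 alone had 10 and 9, and those with the other genes alone had 8 and 7.5. Single-kind cells thus tended to have fewer selecting UMIs, and a cell with few such UMIs is more likely to show 1 kind alone. Some had many, however: at time 1, 8 of the 53 had 50 or more, with a highest sum of 75, and at time 2 the highest of the 24 had 41.

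Two-cell genes beyond those that chose the cells were read from 46 other listed two-cell genes found in the files. This set is not independent of the selecting genes. It includes Zscan4b and Zscan4e, and also Tcstv1, Tcstv3, AF067061 and Gm20767 from the same stretch of chromosome 13 as B020031M17Rik. The lists were also chosen with earlier results of these data known. Sums of the 46 genes are raw UMIs, not scaled for depth. The median sum of these genes was 64 UMIs per two-cell-like cell at time 1 (range 1 to 1691) and 83 at time 2 (range 2 to 694), against a median of 0 in other cells. At least 20 such UMIs were present in 117 of 151 two-cell-like cells (77.5%, 70 to 83.9%) and in 50 of 65 (76.9%, 64.8 to 86.5%). In cells without any UMI of the 5 selecting genes, 17 of 24698 (0.0688%) and 13 of 27754 (0.0468%) reached 20. Cells with 3 or 4 UMIs of the selecting genes lay between, with 7 of 68 and 2 of 13 reaching 20. Seen from the other side, of all cells with 20 or more UMIs of the 46 genes, 117 of 151 at time 1 and 50 of 76 at time 2 were two-cell-like.

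**Figure D1:**
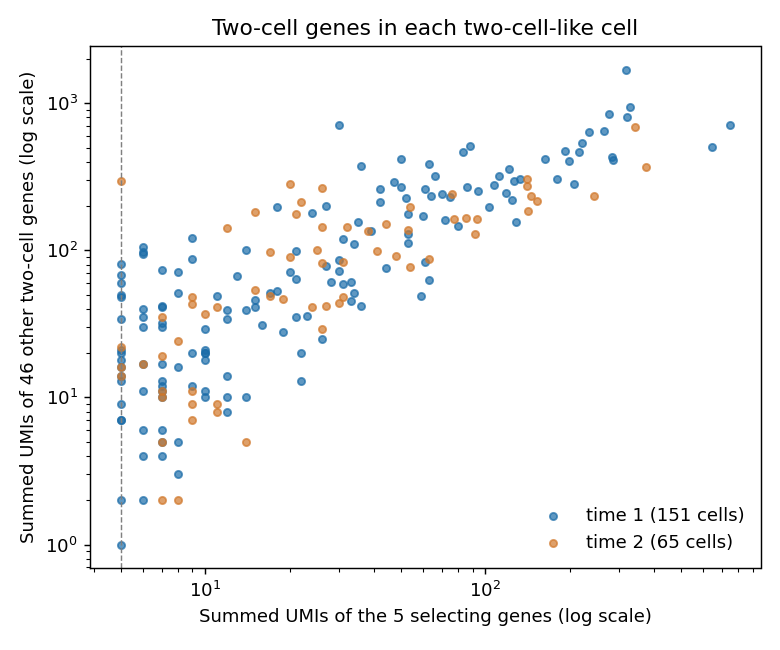
Each point is 1 two-cell-like cell, with the summed UMIs of the 5 selecting genes on the x axis and of 46 other listed two-cell genes on the y axis, both on log scales; the dashed line is the threshold of 5. Cells just above the threshold spread widely on the y axis, from 1 UMI upward, and the highest cell reaches 1691.

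The label was checked against cell type markers. All 6 pluripotency markers (Pou5f1, Sox2, Nanog, Zfp42, Esrrb, Dppa5a) were detected in two-cell-like cells, with a summed level of 7511 CPM against 6694 CPM in other cells at time 1 and 7243 against 5159 CPM at time 2. Most of this sum was Dppa5a, and without it the other 5 genes summed to 985 against 1080 CPM and 1242 against 1284 CPM, so the direction turned. By gene, 1 of the 6 was higher and 3 were lower in both libraries, with median log2 ratios of -0.33 and -0.12. Every two-cell-like cell had 10 or more UMIs of these 6 genes. Fibroblast markers summed to 25.02 against 59.5 CPM at time 1 and 8.34 against 55.0 CPM at time 2, endoderm markers to 6.21 against 9.58 CPM and 5.86 against 15.1 CPM, mesendoderm markers to 12.6 against 24.9 CPM and 4.74 against 19.7 CPM, and trophoblast markers to 56.2 against 88.9 CPM and 45.3 against 56.9 CPM. Two-cell-like cells were thus below other cells in the summed level of all 4 lists of other cell types in both libraries. The sums of other cells include cells with many such UMIs. At time 1 their highest sums were 2558 fibroblast, 188 endoderm, 114 mesendoderm and 285 trophoblast UMIs. By gene, 4 of the 6 endoderm markers were lower and 1, Sox17, was higher in both libraries. Sox17 was at 1.57 against 1.42 CPM at time 1 and 1.35 against 0.857 CPM at time 2. These levels rest on 19 and 6 UMIs in two-cell-like cells, and both differences were within counting error. Sox17 had a UMI in 8.61% of two-cell-like against 2.97% of other cells at time 1, and in 9.23% against 2.09% at time 2. The shares of cells with a Sox17 UMI were not taken at equal depth. For trophoblast the lower sum rests on Tfap2c, at 32.1 against 63.6 CPM and 36.8 against 49.1 CPM. Without it the other 5 trophoblast genes summed to 24.1 against 25.3 CPM at time 1 and, turning at time 2, to 8.57 against 7.82 CPM. By cell, however, 10 of 151 two-cell-like cells of time 1 (6.62%) had 10 or more fibroblast UMIs, with a highest sum of 32, against 2.24% of other cells, and 0 of 65 did at time 2. Trophoblast markers likewise reached 10 or more UMIs in 25 of 151 two-cell-like cells of time 1 (16.6%) against 14.2% of other cells, and in 4 of 65 (6.15%) against 7.84% at time 2. Depth was not equalised for these counts of raw UMIs per cell. At time 1, 22 of the 151 two-cell-like cells had 100000 UMIs or more, against 1839 of 25811 other cells. With cells of 10 or more fibroblast UMIs left out of both classes, all 105 genes described below as higher were called again, and 127 were called in all. The part of the cells with trophoblast UMIs was not tested. The median depth of two-cell-like cells was 47586 against 44998 UMIs at time 1 and 55784 against 52564.5 UMIs at time 2. After thinning, they had a median of 3976 genes against 4001 at time 1 and 3949 against 3914 at time 2. Their median mitochondrial share was 2.25% against 2.33% and 1.88% against 2.12%.

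For all genes, UMIs were summed over the two-cell-like cells and over the other cells of each library, scaled to CPM, and compared as the log2 ratio of CPM + 1. The added 1 CPM understates the ratio of genes near 0 in other cells. The 4915 genes that reached 20 CPM in either class of each library were compared. The median log2 ratio over all of them was -0.20 at time 1 and -0.065 at time 2, and with trimmed-mean scaling it was -0.10 and -0.067. A ratio of 1 or more in both libraries, meaning at least 2-fold higher, was found for 105 genes (2.14% of those compared), and a ratio of -1 or less for 5 genes (0.102%). The count of higher genes depended on the settings. It was 166 at 10 or more selecting UMIs, 175 with the mean over cells in place of summed UMIs, 251 at 5 CPM and 49 at 50 CPM. The 105 include 3 of the selecting genes and 17 other genes of the two-cell lists. For 50 of the 105 the level in other cells was under 1 CPM in both libraries. A gene nearly silent in other cells could enter the comparison only if it was high in two-cell-like cells, so the count of such genes supports nothing on its own.

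The 15 genes with the highest ratios were almost silent elsewhere. After B020031M17Rik came Gm21761, its neighbour on chromosome 13, at 424 CPM in two-cell-like cells against 0.712 CPM in other cells at time 1 and 447 against 0.104 CPM at time 2 (log2 ratios 7.96 and 8.66). Gm5039, on chromosome 12, was at 397 against 0.813 CPM and 396 against 0.42 CPM, with log2 ratios of 7.78 and 8.13. It was detected in 86.1% and 81.5% of two-cell-like cells and in 3.07% and 2.08% of others. The noncoding RNA Platr31 was at 321 against 1.37 CPM and 233 against 0.43 CPM. It reached more two-cell-like cells at time 1 than any of the 5 selecting genes, 92.7%, and 84.6% at time 2. Platr31 is annotated as antisense, and counts of overlapping genes on opposite strands may not be separable. Ccser1, a gene spanning chr6:61180324-62382865 on GRCm38 and in no two-cell list used here, was at 92.0 against 0.208 CPM and 110 against 0.0853 CPM.

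**Figure D2:**
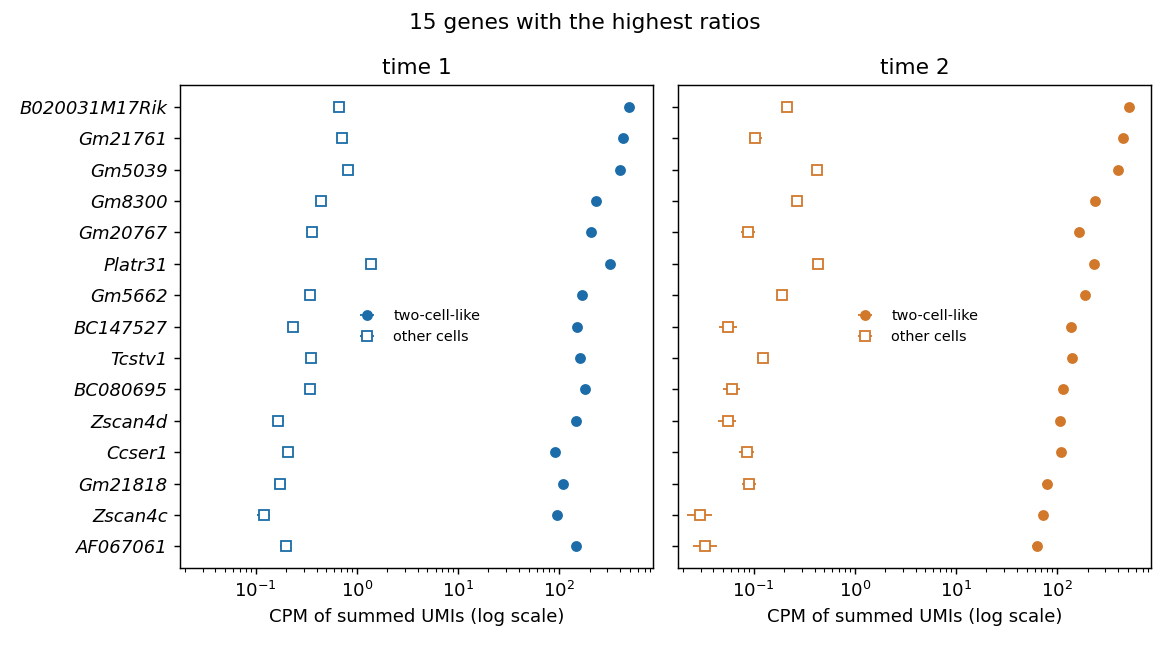
Level of the 15 genes with the highest ratios in CPM on a log scale, for two-cell-like cells (filled circles) and other cells (open squares) of each library; bars are exact 95% Poisson intervals, often smaller than the symbol. In both panels every two-cell-like value is above 50 CPM and every value in other cells is at or below 1.37 CPM.

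Some of the 105 genes sit side by side, chiefly those of 3 families. With starts no more than 500 kb apart, 30 of them fell into 7 runs, of which 4 were pairs. The longest, at chr12:87514316-88324026 on GRCm38, held 9 genes, among them Gm8300, Gm4027, Gm2016, Gm2022 and Gm5662, relatives of the translation initiation factor gene Eif1a. The run at chr13:119893388-120318178 held 8 genes: Tcstv1, Gm21761, B020031M17Rik, Gm20767, Gm21818, AF067061, BC147527 and Tcstv3. The run at chr7:11005745-11614112 held Zscan4c, Zscan4d and 3 further loci named as Zscan4 pseudogenes. Genes within a run are often near-identical copies, so their individual counts are uncertain and they are not independent observations. The share of all compared genes that lie within 500 kb of another is not set beside the count of 30, so this count is a description only. Of the 105, 93 are annotated as protein coding and 26 have only a Gm number for a name.

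In the two-cell lists, most members that had not been used for the selection had higher values in two-cell-like cells. Leaving the selecting genes out, both other Zscan4 family members in the files, all 7 Eif1a-like genes and 32 of 37 two-cell programme genes had a ratio above 0 in both libraries. None of these 46 genes reached 20 CPM in other cells of both libraries, and 17 were among the 4915 compared, so no share over all compared genes is set beside these counts. Their median log2 ratios at time 1 and time 2 were 3.52 and 2.86 for the 2 Zscan4 genes, 5.46 and 5.42 for the Eif1a-like genes, and 3.51 and 3.47 for the two-cell programme. Zscan4e, not among the selecting genes, was at 13.8 against 0.014 CPM at time 1 and 14.2 against 0.00226 CPM at time 2.

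Outside the runs of neighbouring genes described above, Tmem92, encoding a transmembrane protein, was at 66.5 against 0.272 CPM at time 1 and 76.9 against 0.0548 CPM at time 2. Sp110, a nuclear body protein gene, was at 71.9 against 0.285 CPM and 51.0 against 0.0808 CPM. Ddit4l, an inhibitor of mTOR signalling, was also used by other cells, at 164 against 9.95 CPM and 159 against 8.69 CPM. Arg2, the mitochondrial arginase, was at 26.8 against 0.34 CPM and 41.0 against 0.258 CPM. The deubiquitinase gene Usp17lc and the homeobox gene Lmx1a were likewise high, Usp17lc at 63.9 against 0.153 CPM and 45.6 against 0.0673 CPM, and Lmx1a at 31.2 against 0.109 CPM and 13.1 against 0.0401 CPM. Gm12794 was at 128 CPM in two-cell-like cells of time 1 and at 38.8 CPM in those of time 2, against 0.237 and 0.0249 CPM in other cells. Tdpoz5 and Gm6763, also listed, had no UMI in any two-cell-like or other cell of either library, so they give no comparison. Trim43b, at 0.58 against 0.286 CPM at time 1, was at 0.225 against 0.359 CPM at time 2. Usp17lc, Tdpoz5 and Trim43b belong to listed families of similar genes, so their separate counts are uncertain as well.

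Of the known activators, Duxf3, the name of Dux in the files, was at 16.1 against 0.168 CPM at time 1 and 13.1 against 0.0266 CPM at time 2, and had a UMI in 40.4% and 35.4% of two-cell-like cells. Dppa2 was at 126 against 57.0 CPM and 303 against 84.9 CPM, with log2 ratios of 1.13 and 1.82. Its partner Dppa4 was nearly level, at 99.6 against 94.1 CPM and 135 against 136 CPM. Nelfa, a subunit of the negative elongation factor complex, was at 150 against 42.9 CPM and 131 against 47.0 CPM, with log2 ratios of 1.78 and 1.46. Trp53, which encodes p53, was at 204 against 265 CPM and 299 against 322 CPM. Dppa2 and Nelfa thus passed the 2-fold mark in both libraries while Dppa4 and Trp53 did not, and Duxf3 was under the 20 CPM needed to be compared.

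The levels of Nelfa, Dppa2 and Duxf3 differed with the amount of selecting UMIs in a cell, while that of Trp53 showed no rise. In two-cell-like cells with 5 to 9, 10 to 49 and 50 or more UMIs of the selecting genes, the 46 other two-cell genes summed to 256, 1478 and 6777 CPM at time 1, and to 424, 1620 and 3139 CPM at time 2. Nelfa was at 42.2, 136 and 417 CPM at time 1 and at 71.2, 112 and 227 CPM at time 2. Dppa2 was at 70.4, 133 and 250 CPM and at 224, 301 and 396 CPM. Duxf3 was at 7.54, 13.2 and 39.7 CPM and at 5.04, 16.03 and 17.8 CPM. Each of the 3 was thus higher in the top group than in the bottom one in both libraries, although for Duxf3 at time 2 the intervals of the upper groups overlapped (10.7 to 23.0 and 11.2 to 27.0 CPM). Trp53 was at 199, 220 and 197 CPM at time 1 and at 312, 313 and 265 CPM at time 2. At time 1, Pou5f1, which encodes the pluripotency factor OCT4, ran the other way, at 828, 683 and 518 CPM, but at time 2 it was at 762, 666 and 729 CPM.

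Depth differed between these groups, without a steady order. Median UMIs per cell were 54608.5, 42782 and 48827.5 at time 1 and 66142.5, 44053 and 60941 at time 2. At time 1 the 50 cells with 5 to 9 UMIs held 51.6% of all UMIs of the two-cell-like cells, because 14 of them had 100000 UMIs or more and alone gave 38.6%. The top group had 2 such cells, with 2.29%. At time 2 the 18 cells with 5 to 9 UMIs held 31.3%, and cells of 100000 UMIs or more were spread over the groups, with 4, 5 and 5 such cells giving 13.6%, 13.7% and 15.9% of the UMIs. The 10% of cells with the highest doublet scores included 1 of the 151 two-cell-like cells of time 1 and 6 of the 65 of time 2. None of the 14 large cells of time 1 with 5 to 9 selecting UMIs was among them. Whether these large cells are doublets or larger multiplets is not settled by these scores and was not tested further. Those of the 14 with 270241 to 386312 UMIs held only 5 to 21 UMIs of the 46 other two-cell genes. The last of the 14, with 127138 UMIs, held 98, and the median over two-cell-like cells of time 1 was 64. Whether these large cells are two-cell-like beyond their few selecting UMIs was not tested either. Summed levels at time 1 therefore weigh toward large cells with few selecting UMIs, and the levels below are over all two-cell-like cells unless cells with 10 or more selecting UMIs are named. On the latter, several time 1 log2 ratios of genes named below were nearer 0: Smchd1 went from -0.91 to -0.44, Hspa5 from -0.78 to -0.49, Mcm3 from -0.65 to -0.32, Ube2c from 0.24 to 0.043 and Ooep from 0.14 to 0.013. Some widely used genes differed between the groups at time 1, with Ncl, the nucleolin gene, at 845, 1917 and 1764 CPM and Top2a, the DNA topoisomerase gene, at 182, 331 and 387 CPM over the 3 groups. At time 2 both were lowest in the top group instead, Ncl at 3563, 4101 and 2909 CPM and Top2a at 560, 566 and 401 CPM.

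Pluripotency genes as a list stayed near the level of other cells, though Sox2 and Klf4 were lower at time 1. Of 15 listed naive and core pluripotency genes none passed 2-fold in both libraries, and the list's median log2 ratio was -0.23 at time 1 and -0.0097 at time 2, close to the -0.20 and -0.065 over all genes. Medians of lists, here and below, run over every listed gene in the files, including genes under 20 CPM. Medians over all genes cover only genes that reached the minimum level, so the 2 kinds of median rest on unlike sets. The list's time 1 median turned to 0.075 on cells with 10 or more selecting UMIs, against -0.13 over all genes. Its time 2 median moved the other way, to -0.13 against -0.080 over all genes. Pou5f1 was at 721 against 675 CPM at time 1 and 714 against 757 CPM at time 2. Dppa5a was higher in both libraries, at 6526 against 5615 CPM and 6001 against 3875 CPM. Sox2 was at 111 against 218 CPM at time 1 (log2 ratio -0.96) and at 237 against 266 CPM at time 2 (-0.17). Klf4 was at 29.4 against 52.7 CPM at time 1 (-0.82, and -0.41 on cells with 10 or more selecting UMIs) and at 108 against 109 CPM at time 2. Of the 13 listed genes compared, 7 were lower and 3 higher in both libraries, where 51.2% of all compared genes were lower in both. Nanog was at 102 against 115 CPM at time 1 and at 159 against 107 CPM at time 2. The directions for Pou5f1 and Nanog at time 1 rest on the cells with 5 to 9 selecting UMIs. On cells with 10 or more, set against all cells with fewer, Nanog was at 136 against 115 CPM at time 1 and 129 against 107 CPM at time 2, higher in both, and Pou5f1 at 608 against 676 CPM and 692 against 757 CPM, lower in both. Sox2 was lower in both with either set of cells, at 141 against 217 CPM and 224 against 266 CPM on those with 10 or more. Of 5 primed epiblast genes, 3 (Otx2, Fgf5 and Fgf8) were lower and 1 was higher in both libraries, with list medians of -0.35 and -0.84. Of the 3 primed genes that were compared, 2 were lower in both, where 51.2% of all compared genes were. On cells with 10 or more selecting UMIs the list medians were -0.67 and -1.24. Otx2 was at 14.3 against 37.2 CPM and 11.3 against 20.9 CPM. The higher gene was Sox3, at 13.7 against 8.48 CPM and 13.1 against 3.67 CPM.

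The list of genes known to hold the two-cell programme silent had a lower median ratio at time 1 than at time 2. This difference between the libraries was not tested. Chaf1b (log2 ratios of -0.23 at time 1 and -0.35 at time 2) and E2f6 (-0.41 and -0.60) went the other way. The 17 listed repressors had a median log2 ratio of -0.52 at time 1, below the -0.20 over all genes, and of -0.073 at time 2, against -0.065 over all genes; none passed 2-fold in both. Smchd1, a chromatin silencing factor, was at 53.4 against 101 CPM at time 1 and 72.2 against 92.2 CPM at time 2. Lin28a, an RNA-binding repressor, was at 55.3 against 93.7 CPM and 63.4 against 85.6 CPM. Trim28, the KAP1 corepressor, was instead higher, at 374 against 332 CPM and 612 against 462 CPM. On cells with 10 or more selecting UMIs the list's median at time 1 was -0.17. The DNA methylation genes went the same way, with medians of -0.65 and -0.11 and -0.21 at time 1 on cells with 10 or more selecting UMIs. Dnmt3b, a de novo methyltransferase gene, was at 96.3 against 175 CPM and 113 against 123 CPM. Neither list's lower level at time 1 was as large in the cells with more selecting UMIs.

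DNA replication genes were slightly lower. All 12 had a ratio below 0 in both libraries, where 51.2% of compared genes did, with medians of -0.33 and -0.23; none passed 2-fold. On cells with 10 or more selecting UMIs 11 of the 12 stayed below 0 in both, and Pcna, the sliding clamp, was level at time 1, at 216.8 against 216.5 CPM. Mcm3, a subunit of the replicative helicase, was at 126 against 197 CPM and 265 against 350 CPM, and Cdc6, a helicase loader, at 22.8 against 36.7 CPM and 30.2 against 45.1 CPM. Mitosis genes had medians of -0.22 and 0.046, with Ube2c, an ubiquitin-conjugating enzyme of the anaphase, at 564 against 478 CPM and 627 against 482 CPM. Ribosome biogenesis genes had medians of -0.39 and -0.15 and splicing factor genes of -0.38 and -0.20. On cells with 10 or more selecting UMIs, the time 1 medians of these 2 lists were -0.089 and -0.14. None of the genes of these 3 lists passed 2-fold in both libraries.

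**Figure D3:**
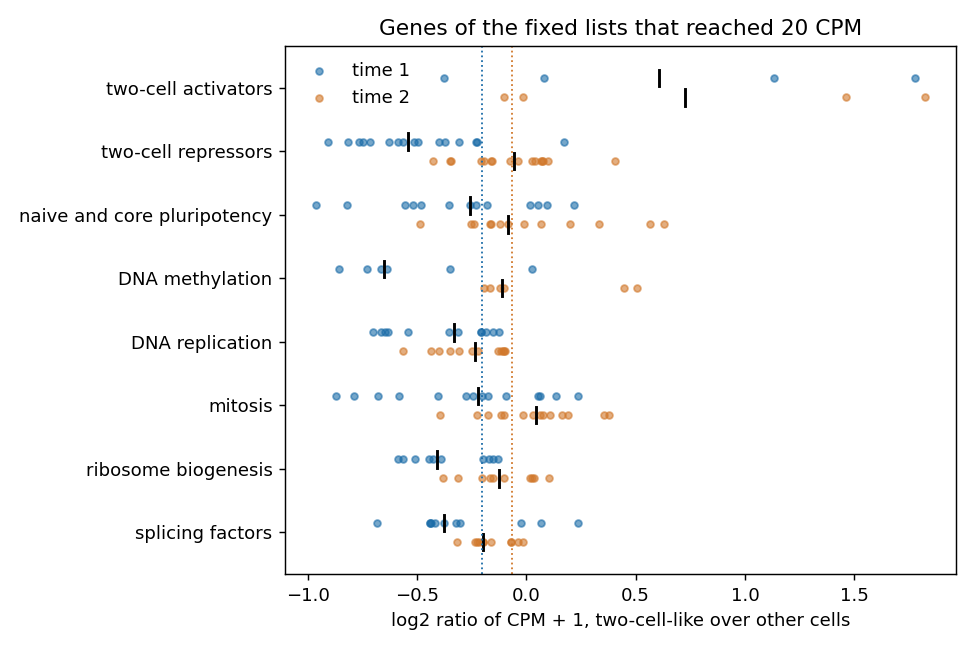
Log2 ratio of CPM + 1 between two-cell-like and other cells for the genes of 8 lists that reached 20 CPM; each point is 1 gene in 1 library, black bars are medians over the points shown, and dotted lines are the medians over all 4915 genes. Nelfa and Dppa2 stand out to the right among the activators, while the other lists lie between -1 and 1.

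Stress and p53 target genes showed no common direction. The 10 stress response genes had medians of -0.11 and -0.051. Hspa5, the endoplasmic reticulum chaperone BiP, was at 168 against 288 CPM and 251 against 340 CPM, whereas Ddit4, an mTOR inhibitor related to Ddit4l, was at 121 against 89.7 CPM and 43.5 against 26.3 CPM. The 14 p53 targets had medians of -0.16 and -0.040, with Gadd45a at 35.0 against 63.7 CPM and 21.4 against 37.2 CPM and Mdm2 at 81.5 against 70.0 CPM and 72.6 against 65.5 CPM. On cells with 10 or more selecting UMIs, Mdm2 at time 2 turned to 61.1 against 65.5 CPM. Telomere and recombination genes had medians of -0.31 and 0.034, and of -0.0063 at time 1 on cells with 10 or more selecting UMIs. Rif1, a telomere-associated replication timing factor, was at 282 against 318 CPM at time 1 and at 500 against 370 CPM at time 2. On cells with 10 or more selecting UMIs it was higher in both, at 424 against 317 CPM and 514 against 370 CPM. Of the oocyte genes, Ooep alone reached 20 CPM, at 332 against 301 CPM and 246 against 225 CPM.

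Of the 105 higher genes, 83 were in no list, and 12 reached 20 CPM in other cells of both libraries, so they passed the level filter without help from the two-cell-like cells. Those named here beyond the lists were chosen after their values were seen. Fbxo15, an F-box protein gene used in ES cells, was at 394 against 109 CPM at time 1 and 581 against 163 CPM at time 2. Bola1, a mitochondrial protein gene, was at 357 against 93.2 CPM and 390 against 93.1 CPM. Hist1h4i, a histone H4 gene, was at 212 against 27.5 CPM and 153 against 23.9 CPM. Cwc22, a spliceosome factor gene, was at 150 against 26.1 CPM and 175 against 35.6 CPM. The other 8 were Avpi1, C1d, Clp1, Dppa2, Dqx1, Golga3, Nelfa and Uap1. Unlike the clustered two-cell genes, these were readily detected in ordinary ES cells.

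**Figure D4:**
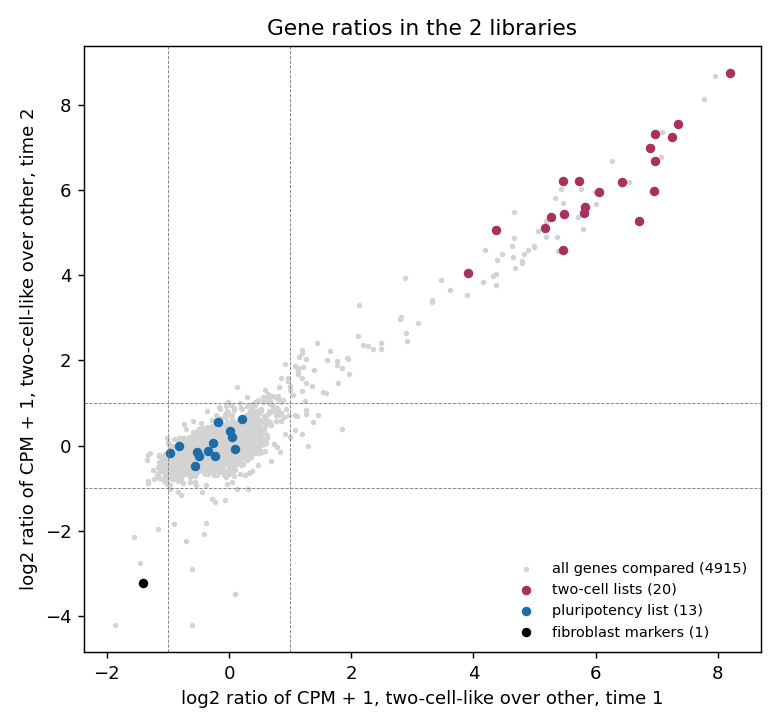
Log2 ratio of CPM + 1, two-cell-like over other cells, at time 1 (x axis) and time 2 (y axis) for the 4915 genes compared; dashed lines mark 2-fold. Genes of the two-cell lists lie at the upper right, pluripotency genes lie between the dashed lines, and the 1 fibroblast marker that reached 20 CPM lies at the lower left.

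The 5 genes at least 2-fold lower were Mgp, Thbs1, Fbln2, Col1a2 and Hmga2. Mgp, encoding matrix Gla protein, was at 5.80 against 23.8 CPM at time 1 and 1.58 against 46.4 CPM at time 2. Col1a2, a type I collagen gene, was at 7.37 against 21.3 CPM and 1.35 against 20.8 CPM. Both are typical of fibroblasts, whose markers reached 10 or more UMIs in 2.24% of the other cells at time 1 and in 2.4% at time 2. With such cells left out of both classes, no gene was 2-fold lower in both libraries. The log2 ratios at time 1 and time 2 were then -0.25 and -0.91 for Mgp, -0.17 and 0.48 for Thbs1, 0.55 and -0.15 for Fbln2, and 0.70 and -0.065 for Col1a2. Col1a2 is itself 1 of the 6 markers by which cells were left out, so its ratio is no independent reading. Hmga2, a chromatin protein gene, stayed lower in both, at -0.57 and -1.03. Among the 15 lowest genes, Egr1, Otx2, Lrrfip1 and Tpm4 were still among the 15 lowest when such cells were left out of the other cells alone. Egr1, an immediate early transcription factor gene, then had log2 ratios of -0.95 and -0.94, and Otx2 of -1.35 and -0.86.

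The share of two-cell-like cells differed between cells of different sex chromosome class. Since cells cannot be assigned to lines, each cell was classed by its own RNA: Y-positive with 2 or more UMIs of Ddx3y, Eif2s3y, Kdm5d and Uty, and, among cells with no Y UMI, X-high if X-linked UMIs, taken relative to autosomal ones, were at least 1.2 times the median of the Y-positive cells, and X-low otherwise. Cells with exactly 1 Y UMI form a class of their own. Y transcripts are sparse, so cells without a Y UMI can still carry a Y chromosome. At time 1, 0.673% of X-high cells were two-cell-like (62 of 9213, 0.516 to 0.862%), 0.379% of X-low cells (41 of 10818, 0.272 to 0.514%), 0.637% of Y-positive cells (19 of 2981, 0.384 to 0.994%) and 0.983% of cells with 1 Y UMI (29 of 2950, 0.659 to 1.41%), the highest of the 4 shares. At time 2 the shares were 0.759% of X-high cells (29 of 3820, 0.509 to 1.09%), 0.114% of X-low cells (23 of 20177, 0.0723 to 0.171%), 0.236% of Y-positive cells (6 of 2542, 0.0867 to 0.513%) and 0.394% of cells with 1 Y UMI (7 of 1778, 0.158 to 0.809%). The X-low share was below the X-high share, and their intervals did not overlap in either library. The intervals of the Y-positive cells and of the cells with 1 Y UMI each overlapped the X-high interval in both libraries. The Y-positive interval also overlapped the X-low interval in both libraries, and that of cells with 1 Y UMI did so at time 2 alone. Neither class is thus set apart from both X-high and X-low cells in both libraries. With the two-cell-like rule applied at 18000 UMIs per cell, the X-high, X-low and Y-positive shares were 0.554%, 0.203% and 0.201% at time 1 and 0.497%, 0.0545% and 0.157% at time 2. For cells with 1 Y UMI they were 0.542%, level with the X-high cells, and 0.225%.

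**Figure D5:**
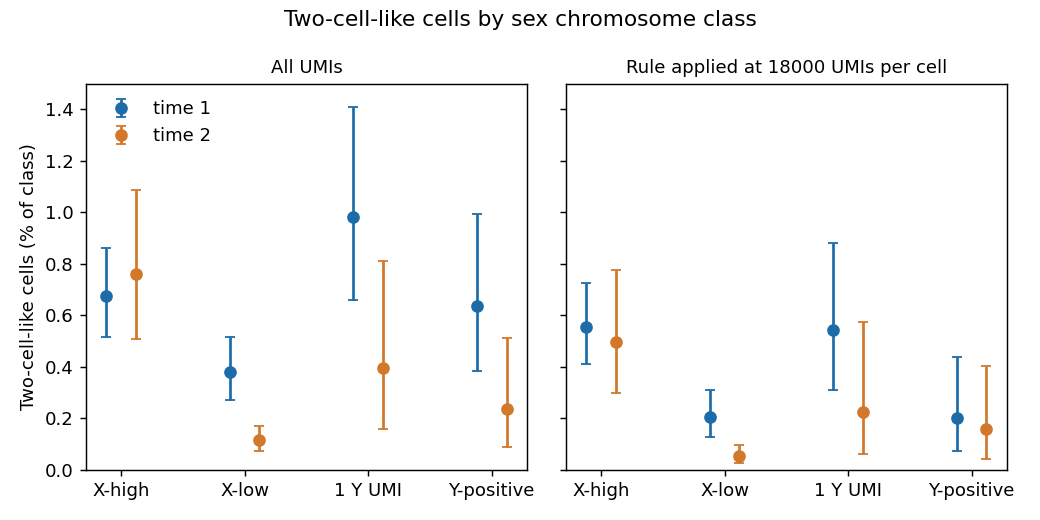
Two-cell-like cells as a percentage of X-high cells, X-low cells, cells with 1 Y UMI and Y-positive cells in each library, with exact 95% intervals for counting error, with all UMIs (left) and with the rule applied at 18000 UMIs per cell (right). At time 2 the X-high share of 0.759% lies above the X-low share of 0.114%.

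The same relation seen from the two-cell-like cells was that 62 of 103 without a Y UMI (60.2%) were X-high at time 1, against 45.9% of other such cells, a difference of 14.3 percentage points (Newcombe interval 4.59 to 23.2). At time 2, 29 of 52 (55.8%) were X-high against 15.8%, a difference of 39.9 points (26.5 to 52.6), and of 18.9 points at a ratio of 1.4 in place of 1.2. The X-high share of other cells itself was 45.9% in the first library and 15.8% in the second. Whether X-high cells stand for XX lines, and whether single lines carried the two-cell-like cells, was not tested, and culture, line and X dosage cannot be told apart here.

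By time 2, many cells had raised RNA from whole chromosomes, called as a gain where the share of autosomal UMIs was at least 1.3 times the median of other cells at time 1. Chromosome 1 met this mark in 13 of 65 two-cell-like cells (20%, 11.1 to 31.8%) against 53.4% of other cells, chromosome 8 in 20 of 65 (30.8%, 19.9 to 43.4%) against 49.4%, and chromosome 14 in 6 of 65 (9.23%, 3.46 to 19.0%) against 17.9%. These calls share a denominator, since a raised chromosome enlarges the autosomal total and lowers the ratios of the others, X included. Over all classes, gains of chromosomes 1 and 8 were thus less frequent among two-cell-like cells, and for chromosome 14 the interval reached the share of other cells. A chromosome 1 gain was called in 242 of 3820 X-high cells and in 12844 of 20177 X-low cells of time 2, so the classes were also taken apart. Among X-low cells of time 2, 2 of 12844 cells with a chromosome 1 gain (0.0156%, 0.00189 to 0.0562%) and 21 of 7333 without it (0.286%, 0.177 to 0.437%) were two-cell-like. For chromosome 8 the X-low shares were 0.103% with the gain (12 of 11626) and 0.129% without it (11 of 8551), the X-high shares 0.68% and 0.766%, those of cells with 1 Y UMI 0.342% and 0.443%, and the Y-positive shares 0.252% and 0.222%. Within each class the exact intervals with and without the chromosome 8 gain overlapped, so the lower frequency over all classes was not seen beyond counting error within any. Within X-high cells, 2 of 242 with a chromosome 1 gain (0.826%) and 27 of 3578 without it (0.755%) were two-cell-like, and within Y-positive cells 2 of 1046 (0.191%) and 4 of 1496 (0.267%). Cells with 1 Y UMI ran against the X-low cells: 7 of 981 with the gain (0.714%, 0.287 to 1.46%) and 0 of 797 without it (exact interval 0 to 0.462%; 3 counts in 797 cells would be 0.376%) were two-cell-like, so this class held 7 of the 13 two-cell-like cells with a chromosome 1 gain. The lower share with the gain was thus carried by the X-low cells and did not hold in every class. At time 1, gains were uncommon, and 0 of 151 two-cell-like cells had one of chromosome 1 (0 to 2.41%) against 0.802% of other cells, and 4 of 151 one of chromosome 8 (2.65%, 0.726 to 6.64%) against 4.91%; both intervals include the share of other cells.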

How the data were processed

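The authors deposited, for each of 2 libraries, a matrix of raw UMI counts per gene and barcode (32285 genes). Per the file headers and the submitters' processing notes it was made with Cell Ranger 6.1.2, after bcl2fastq 2.20.0.422, on mm10 (GRCm38). How counting treated reads shared by gene copies, introns or strand is not given in the sources used here. The members and lists were chosen with earlier results of these data known.

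Barcodes were filtered as the report states, and UMI counts were summed per class and library, scaled to CPM and compared as log2 ratios with a pseudocount of 1 CPM. Genes reaching 20 CPM in either class of each library were compared, and a 2-fold difference in both libraries was the mark used. With 1 library a time point and cells that are not replicates, no test was made and no cell was treated as a sample. The named genes are the 5 selecting genes, the 15 with the highest and the 15 with the lowest ratios of one sign in both libraries, and list members with the largest or opposite ratios. Further genes outside the lists, such as Fbxo15, were named after their values were seen. Scrublet's automatic threshold marked 0 cells in either library, so doublets were kept, and removing the 10% with the highest scores was tried instead. The X and chromosome measures rest on 406 X-linked and 11512 autosomal genes. Coordinates are from GENCODE M21 (32235 of 32285 genes matched), upstream sequences from RefSeq. Trimmed-mean factors came from edgeR 4.0.16, and the other steps ran in Python 3.11.15 with scanpy 1.11.5 and Biopython 1.88. The code of the gene comparison was run on simulated class sums, in which the changed genes were all at 20 CPM or more in other cells. The simulation held no spread between cells and no selection of cells, so it bears on the arithmetic alone.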

Additional observations from a re-analysis of the deposited data

Results flagged for a closer look

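10 listed genes had a log2 ratio of opposite sign in the 2 libraries by more than counting error, under both scalings; with 1 library a time point, none of these differences was tested. They were 7.41% of the 135 listed genes compared, where 5.43% of all 4915 compared genes met the same mark, a share not far below. The ratio at time 2 minus that at time 1 was 1.24 for Dnmt3a, a DNA methyltransferase gene, and 1.16 for Smc1b, a meiotic cohesin gene. It was 0.63 for Aurkb and 0.57 for Cenpe, both of mitosis, 0.61 for Rif1, 0.36 for the p53 target Ccng1 and 0.23 for Npm1. It was negative for Phlda3 (-0.43), Pou5f1 (-0.18) and Snrpd2 (-0.14). For 5 of the 10 the opposite sign was gone on cells with 10 or more selecting UMIs: Cenpe (log2 ratios 0.20 and 0.31) and Rif1 (0.42 and 0.48) were then higher in both libraries, and Phlda3 (-0.32 and -0.46), Pou5f1 (-0.15 and -0.13) and Snrpd2 (-0.027 and -0.047) lower in both. Smc1b, Ccng1 and Npm1 were then near level at time 1 (-0.0063, -0.015 and -0.015), while Dnmt3a (-0.45 and 0.43) and Aurkb (-0.17 and 0.35) had opposite signs in either set of cells. Dnmt3a was at 24.2 CPM in two-cell-like cells against 40.8 CPM in other cells at time 1, and at 77.3 against 54.1 CPM at time 2.

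Barcodes left out of all comparisons also carried the selecting genes. Among barcodes below 18000 UMIs that passed the limits on genes and mitochondrial share, 54 of 22316 at time 1 (0.242%) and 22 of 5254 at time 2 (0.419%) had 5 or more UMIs of the 5 genes, with exact 95% intervals of 0.182 to 0.316% and 0.263 to 0.633%. The order of the libraries was thus the reverse of that among the cells analysed (0.582% and 0.23%). These barcodes differ in depth between the libraries, and the cause was not tested. Among barcodes of 18000 UMIs or more with over 10% mitochondrial UMIs, 0 of 383 and 2 of 42 had 5 or more. The barcodes below 18000 UMIs with 5 or more had median sums of 11 and 21.5 UMIs, at median depths of 10837.5 and 14126 UMIs.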

How the results depend on the processing

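The share of two-cell-like cells at time 1 was 0.844% at a minimum of 3 selecting UMIs, 0.389% at 10, 0.331% on the 3 Zscan4 genes alone and 0.366% after thinning; at time 2 it was 0.166% at 10 and 0.134% after thinning. Other depth and mitochondrial limits kept both shares within their intervals. Genes at least 2-fold higher numbered 105 with the settings used, 251 at a minimum of 5 CPM, 49 at 50 CPM, 175 with the mean over cells and 166 at 10 selecting UMIs; genes 2-fold lower numbered 5, and 28 at 5 CPM, 0 at 50 CPM, 0 without fibroblast-marker cells, 8 with the highest doublet scores removed and 13 at 10 selecting UMIs. Of the 105 genes, all 105 were called again with trimmed-mean scaling, without fibroblast-marker cells and with the highest doublet scores removed, 104 with the mean over cells and 99 with a pseudocount of 5 CPM. With fibroblast-marker cells left out of the other cells, the log2 ratio of genes among the 15 lowest changed sign for Mgp at time 1 (0.26), Thbs1 (0.10 and 0.48), Fbln2 at time 1 (0.87), Vim at time 1 (0.12) and Col1a2 at time 1 (1.298), Col1a2 being 1 of the markers used. With them left out of both classes, it changed sign for Thbs1 at time 2 (0.48), Fbln2 at time 1 (0.55) and Col1a2 at time 1 (0.70), genes 2-fold lower numbered 0, and list medians at time 1 that moved beyond counting error were the Zscan4 family 4.19, the two-cell programme 4.11, the Eif1a-like genes 5.84, activators 1.37, repressors -0.37, pluripotency -0.086, DNA methylation -0.40, p53 targets -0.032, ribosome biogenesis -0.23 and splicing factors -0.26. The X-high difference at time 2 was 18.9 points at a ratio of 1.4. The doublet setting, the removal of fibroblast-marker cells from both classes and the list medians taken as a mean over cells were chosen after seeing the data. Where 2 values follow, they are time 1 and time 2, and the cause of a move was not tested. In this section the medians of the Zscan4 family and the two-cell programme include their selecting genes, unlike those given in the Results. With the settings used they were 3.87 and 3.92 for the family and 3.76 and 3.51 for the programme. With a pseudocount of 5 CPM, list medians that moved beyond counting error were the Zscan4 family 1.91 and 1.94, the two-cell programme 1.83 and 1.62, the Eif1a-like genes 3.36 and 3.32 and DNA methylation -0.54 (time 1). With trimmed-mean scaling, list medians that moved beyond counting error were activators 1.24 (time 1), DNA replication -0.23 (time 1), mitosis -0.12 (time 1), ribosome biogenesis -0.29 (time 1) and splicing factors -0.28 (time 1). With the 10% of cells with the highest doublet scores removed, list medians that moved beyond counting error were the Eif1a-like genes 5.63 (time 2) and activators 1.59 (time 2). With at least 10 selecting UMIs, list medians that moved beyond counting error were the Zscan4 family 4.81 and 4.32, the two-cell programme 4.57 and 3.97, the Eif1a-like genes 6.29 and 5.91, activators 1.69 and 1.74, repressors -0.17 (time 1) and pluripotency 0.075 and -0.13. The others were primed epiblast -0.67 and -1.24, DNA methylation -0.21 (time 1), mitosis -0.11 (time 1), p53 targets -0.020 (time 1), ribosome biogenesis -0.089 (time 1) and splicing factors -0.14 (time 1). Telomere and recombination genes, in the same setting, were at -0.0063 (time 1). With the mean over cells in place of summed UMIs, list medians that moved beyond counting error were the Zscan4 family 5.08 and 4.44, the two-cell programme 4.75 and 3.96, the Eif1a-like genes 6.32 and 5.82, activators 1.85 and 1.93, repressors -0.31 (time 1) and pluripotency -0.14 (time 1). The others were primed epiblast -0.87 (time 1), DNA methylation -0.18 (time 1), mitosis -0.093 (time 1), p53 targets -0.039 (time 1), ribosome biogenesis -0.10 (time 1) and splicing factors -0.17 (time 1). Gains of chromosomes 1, 8 and 14 kept their direction or stayed within their intervals under the settings tried. After thinning, 9 of 50, 38 of 53 and 48 of 48 two-cell-like cells with 5 to 9, 10 to 49 and 50 or more selecting UMIs still reached 5 at time 1, and 3 of 18, 19 of 30 and 16 of 17 at time 2. No paired analysis was possible because each time point has 1 library and no cell is tied to a line.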
